A study of Mus musculus with 8 samples.

Results

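Imprinted genes that control growth were examined in SN4741, a mouse line kept as a model of dopaminergic precursors. The genes were chosen by symbol: Grb10, Mest, H19, Igf2, Dlk1, Meg3, Rian, Peg3, Plagl1 and Ndn. Of these 10 genes, 9 were among the 31053 genes in the count matrices, and Rian was not analysed here. Single-cell transcriptomes were collected with the Chromium 3' kit from 8 libraries of one WT line, 4 from cultures at 37 °C in medium with 10% serum and 4 from cultures moved to 39 °C in 0.5% serum for 48 hours. Temperature and serum changed together, so their effects cannot be told apart. The line is reported to be 1 clone from embryonic substantia nigra, carries a heat-sensitive viral T antigen behind a tyrosine hydroxylase promoter, and has an unstable karyotype with extra chromosome copies, so the number of parental copies of each imprinted gene per cell is not known. Nothing in the labels says that replicates came from separate thaws or passages, and p-values measure only the spread between these libraries.

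Imprinted genes are transcribed mainly from the copy inherited from one parent, and DNA methylation laid down in the germ line marks which copy that is. Several of them act on fetal growth: Igf2 encodes a growth factor, Grb10 an adaptor that binds the insulin and IGF1 receptors and dampens their signal, and Dlk1 a membrane protein related to Notch ligands. Grb10 is known for transcription from the maternal copy in most tissues and from the paternal copy in neurons. The assay counts the 3' ends of transcripts as unique molecular identifiers (UMIs, captured molecules) and sees neither the parental copy nor the promoter used.

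One member, Grb10, was read in every library, and from 37 °C to 39 °C its level fell by 44.7%. Another, Mest, was at the edge of detection in every library. Each of the other 7 had 3 UMIs or fewer among 210534583 UMIs of 18351 cells. Over all genes in the matrices, 45.2% had 3 UMIs or fewer and 35.1% had none.

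Promoters are shown for members at both ends of this range, with CpG sites (the letters CG), at which DNA can be methylated, marked in capitals. Whether any of these windows carries the mark of an imprint was not examined, so the number of CG does not measure imprinting. Sequences are RefSeq windows on GRCm38.p6, from 250 bases before to 50 after a transcript start, each on the strand of its gene. Of 9 members with such a window, 4 are shown with 5 of their windows. Over all 32851 windows the median was 7 CG, and 94.6% of windows held at least 1. The first Grb10 window, chr11:12037371-12037670 on the minus strand, held 45 CG, a number that 1.93% of all windows reached.
Grb10, upstream start: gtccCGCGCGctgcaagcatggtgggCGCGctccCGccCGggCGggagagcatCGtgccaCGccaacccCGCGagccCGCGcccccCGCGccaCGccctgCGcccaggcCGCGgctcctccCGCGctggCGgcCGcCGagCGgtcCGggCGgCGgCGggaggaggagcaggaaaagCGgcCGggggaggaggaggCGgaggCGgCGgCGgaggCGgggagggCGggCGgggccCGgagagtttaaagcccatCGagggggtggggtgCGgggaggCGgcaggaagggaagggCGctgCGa
The second Grb10 window, chr11:12027922-12028221 on the minus strand, held 9 CG, which 45.8% of windows reached.
Grb10, downstream start: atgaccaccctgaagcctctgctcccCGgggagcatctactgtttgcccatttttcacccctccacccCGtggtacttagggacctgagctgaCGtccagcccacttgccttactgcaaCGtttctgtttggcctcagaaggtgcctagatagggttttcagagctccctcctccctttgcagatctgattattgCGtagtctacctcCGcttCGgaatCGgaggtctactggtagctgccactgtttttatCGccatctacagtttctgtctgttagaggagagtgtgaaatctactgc
Mest, at chr6:30737800-30738099 on the plus strand, held 17 CG.
Mest, second start: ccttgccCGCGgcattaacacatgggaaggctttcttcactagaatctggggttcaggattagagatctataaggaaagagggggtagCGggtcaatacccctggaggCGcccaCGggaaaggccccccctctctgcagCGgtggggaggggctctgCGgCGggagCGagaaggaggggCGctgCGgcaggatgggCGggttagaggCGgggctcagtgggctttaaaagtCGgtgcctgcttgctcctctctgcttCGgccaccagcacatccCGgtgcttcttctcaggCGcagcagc
Plagl1, at chr10:13090582-13090881 on the plus strand, held 26 CG, and 16.9% of windows held as many.
Plagl1: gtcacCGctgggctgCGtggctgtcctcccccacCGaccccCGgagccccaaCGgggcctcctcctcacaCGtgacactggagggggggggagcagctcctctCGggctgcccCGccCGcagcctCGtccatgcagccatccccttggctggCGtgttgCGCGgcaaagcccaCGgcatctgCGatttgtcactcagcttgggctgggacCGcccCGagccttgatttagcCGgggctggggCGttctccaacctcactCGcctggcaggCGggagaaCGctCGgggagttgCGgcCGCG
Meg3, at chr12:109540746-109541045 on the plus strand, held 13 CG.
Meg3, first start: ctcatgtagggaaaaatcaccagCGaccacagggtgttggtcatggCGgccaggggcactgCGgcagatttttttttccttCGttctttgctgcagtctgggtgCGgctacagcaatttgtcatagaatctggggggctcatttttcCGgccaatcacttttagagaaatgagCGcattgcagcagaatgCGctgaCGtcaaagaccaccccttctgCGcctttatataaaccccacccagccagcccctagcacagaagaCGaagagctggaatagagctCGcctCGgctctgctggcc
Methylation was not measured in these libraries, and the counts below do not show which start was used.

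Libraries held 985 to 3494 cells and 17166686 to 29633818 UMIs after filtering. Cells of 39 °C replicate 1 were the fewest and the deepest, with a median of 16665 UMIs per cell against 6676 to 15413 in the other libraries. No pair of libraries shared more than 5 cell barcodes. Assigned cell-cycle phase differed widely, with 20.6% to 28.7% of cells in G1 at 37 °C and 82.5% to 85.4% at 39 °C. The mitochondrial share was also apart, with library medians of 7.55% to 7.89% at 37 °C and 8.04% to 8.85% at 39 °C.

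The neural precursor label was checked against known markers. Nes, Sox2, Notch1 and Vim were read at 10 CPM (counts per 1000000 counts) or more on average, Msi1 had 12 UMIs in all, and Sox1, Pax6, Hes5 and Fabp7 had 0 to 6. Of 10 mesenchymal markers, 5 (Col1a1, Col1a2, Pdgfrb, Twist1 and Prrx1) were read at that level. The mesenchymal list summed to 2017 to 2096 CPM per library at 37 °C, against 1099 to 1128 at 39 °C, and the neuronal list of 8 markers, in which Elavl4 and Dcx had 0 UMIs, to 165 to 193 CPM against 79.3 to 97.7. Both sums were lower at 39 °C, as Grb10 was. Most of the mesenchymal sum was Col1a1 (1027 to 575 CPM) and Col1a2 (678 to 182 CPM), while Twist1 rose (60.5 to 83.9 CPM). Most of the neuronal sum was Stmn2 (112 to 52.9 CPM) and Map2 (51.4 to 29.7 CPM). Among neural precursor markers Nes fell (467 to 108 CPM). Sox2 (55.4 to 76.5 CPM), Notch1 (219 to 468 CPM) and the scarce Msi1 rose, and Vim did not pass. The part of these shifts in the results below was not tested. The glial list of 8, with Olig1, Olig2 and Sox10 at 0, summed to 14.2 to 19.96 CPM at 37 °C and 15.6 to 18.5 at 39 °C. The immune list of 5 summed to 15.3 to 18.3 CPM at 37 °C and 26.6 to 34.9 at 39 °C, nearly all of it Cd68, a lysosomal protein gene that rose from 17.1 ± 1.35 to 29.0 ± 3.01 CPM (log2 fold change 0.75, SE 0.07, edgeR adjusted p = 1.89e-08), while C1qa had 0 UMIs and Ptprc, Csf1r and Aif1 had 8, 21 and 29. The endothelial list of 5 summed to 0.574 to 1.02 CPM at 37 °C and 0.834 to 1.17 at 39 °C. In it Cdh5 and Cldn5 had 0 UMIs, Kdr 2, and Pecam1 and Tek 88 each, of which Pecam1 rose by 1.35 on the log2 scale (SE 0.33, edgeR adjusted p = 0.00149).

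Grb10 (ENSMUSG00000020176) lies at chr11:11930508-12038683 on the minus strand of GRCm38, and none of its 9089 exon bases is shared with another gene of the matrices on that strand. At 37 °C it held 1825, 1674, 1909 and 1767 UMIs in replicates 1 to 4. At 39 °C it held 733, 942, 921 and 851. After TMM scaling the levels were 62.6, 64.9, 66.9 and 62.0 CPM in the 37 °C replicates, against 41.6, 35.7, 32.6 and 32.8 CPM in those at 39 °C. Every 39 °C library was below every 37 °C library, and the highest of them was 39 °C replicate 1, the library with the fewest and deepest cells. The means were 64.1 ± 2.25 and 35.7 ± 4.19 CPM (SD, n = 4 each). On the log2 scale Grb10 fell by 0.85 (SE 0.06; adjusted p = 5.35e-10, edgeR quasi-likelihood test with Benjamini-Hochberg adjustment over 15810 genes).

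This change was one of many. At an adjusted p under 0.05, 62.0% of all tested genes passed, 30.5% with a lower and 31.5% with a higher level at 39 °C. The 39 °C libraries lay wholly below the 37 °C libraries for 28.0% of genes. Grb10 fell as far as or farther than all but 11.4% of tested genes, whose median log2 fold change was 0.02, yet it did not reach the size limit of 1.5 at which, with an adjusted p under 0.01, 5.83% of genes were called. Without 39 °C replicate 1 its log2 fold change was -0.94.

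**Figure D1:**
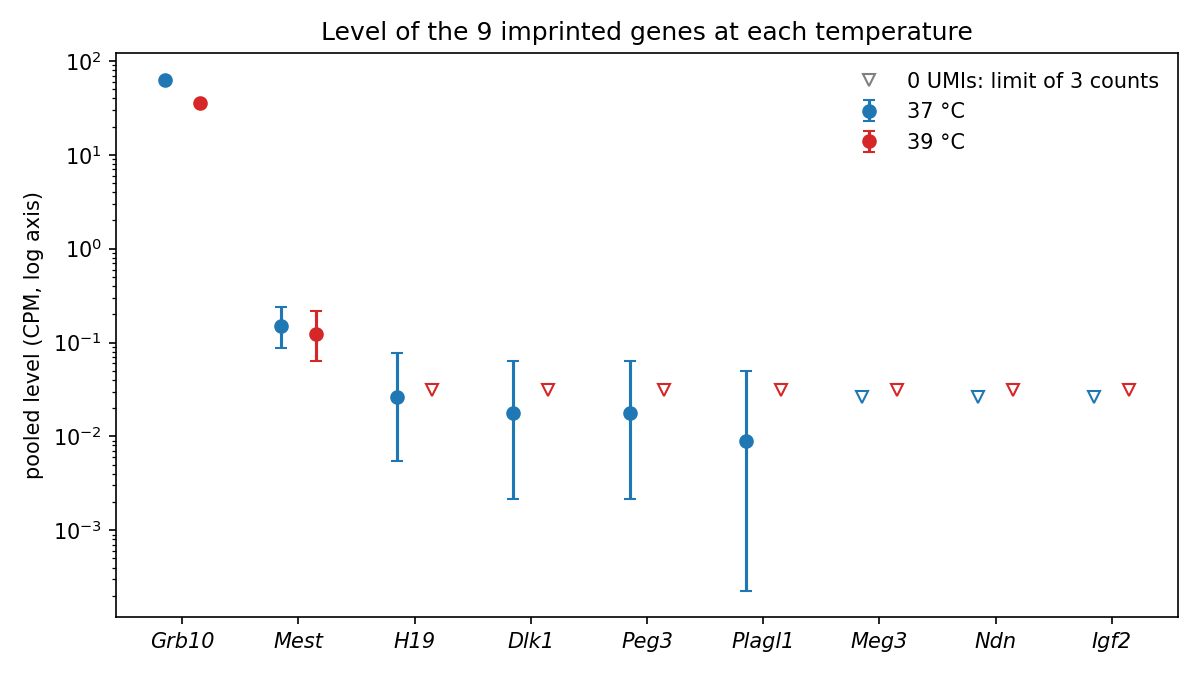
Level of the 9 measured imprinted genes, as UMIs per 1000000 UMIs summed over the 4 libraries of a temperature, on a log axis. Bars are 95% exact Poisson intervals and cover counting error only, and open triangles mark the limit that 3 counts set where a gene had 0 UMIs. Grb10 stands at 63.4 CPM (37 °C) and 35.4 CPM (39 °C), Mest near 0.1 CPM, and the other 7 genes are drawn at or below 0.0308 CPM. For Igf2 the triangle is no upper limit on its transcripts, since reads that also fit Gm49394 are not counted.

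Because the phases differed so widely, Grb10 was compared again in cells assigned to G1. Levels in G1 cells were 68.2, 69.7, 69.3 and 68.9 CPM in the 37 °C replicates. In the 39 °C replicates they were 41.8, 36.6, 32.6 and 33.7 CPM. The temperatures did not overlap, and the 37 °C libraries were closer together in G1 than over all cells, with a coefficient of variation of 0.963% against 3.51%. Within G1 the means were 69.0 ± 0.664 and 36.2 ± 4.10 CPM (SD, n = 4), and Grb10 fell by 0.94 on the log2 scale (SE 0.07; edgeR adjusted p = 1.09e-10). The difference was as large within G1 as over all cells. Among genes tested in G1 cells 47.1% passed, 22.4% with a lower and 24.8% with a higher level, 20.3% had 39 °C libraries wholly below 37 °C libraries, and 6.10% fell at least as far as Grb10.

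Phase itself went with a smaller difference. In each 37 °C library, Grb10 was lower in G2M than in G1 cells: 52.9 against 68.2 CPM in replicate 1, 57.4 against 70.5 in replicate 2, 63.1 against 70.1 in replicate 3 and 56.5 against 69.3 in replicate 4. With the library as a block the log2 difference was -0.28 (SE 0.06; edgeR adjusted p = 1.12e-05), in a comparison in which 41.3% of genes passed and 19.6% passed with a lower level in G2M. At 39 °C the estimate was also -0.28 (SE 0.13; edgeR adjusted p = 0.106, with 25.9% of genes passing), on 18 to 40 Grb10 UMIs per library in G2M, and it was lower in G2M in all 4 libraries. This estimate did not pass, although the same test passed under other phase assignments, at -0.22 with phases scored library by library and -0.37 with the updated phase lists. The difference between the phase effects was -0.0045 on the log2 scale (SE 0.14; edgeR adjusted p = 0.992), against 7.69% of genes that passed this test.

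**Figure D2:**
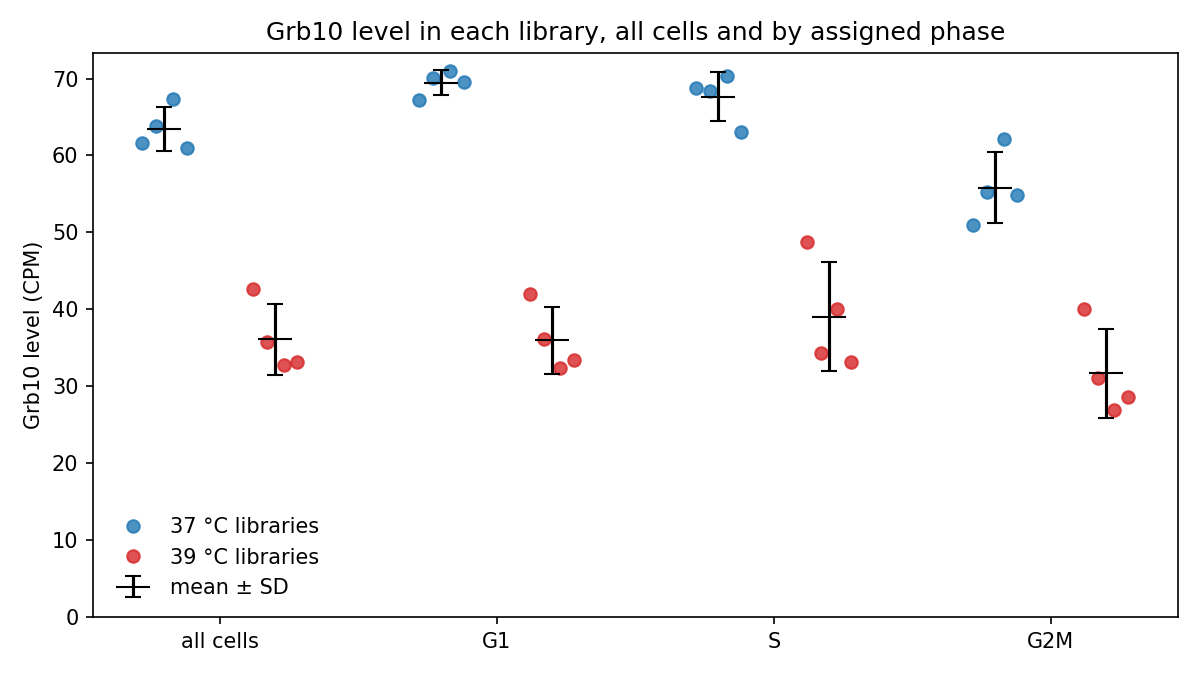
Grb10 level in CPM of library totals, without TMM scaling, for each of the 8 libraries over all cells and over cells assigned to G1, S and G2M. Points are libraries, and black marks are mean ± SD of 4. The 39 °C libraries lie below all 37 °C libraries in every group, with 39 °C replicate 1 the highest of them throughout.

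Detection per cell was read next. A lower sum could come from fewer cells with the transcript or fewer molecules in each. At counts this low the share of cells with a UMI cannot separate these readings, because it follows largely from the mean count. Over all UMIs, 46.1%, 54.9%, 58.5% and 42.9% of cells held a Grb10 UMI in the 37 °C replicates. The 39 °C replicates had 43.8%, 25.6%, 27.1% and 20.2%. These ranges overlap, because 43.8% in 39 °C replicate 1 exceeds 42.9% in 37 °C replicate 4 (two-sided exact permutation p = 0.0571). Depth differed between these libraries, so each cell was thinned to 5000 UMIs, which left out 668 shallower cells at 37 °C and 1668 at 39 °C. Of the latter, 1009 were among the 3494 cells of 39 °C replicate 4.

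At 5000 UMIs the shares were 25.2%, 24.95%, 27.3% and 25.9% in the 37 °C replicates. They were 18.2%, 14.8%, 13.8% and 14.4% in the 39 °C replicates. The ranges then no longer overlapped, with means of 25.8% ± 1.06 and 15.3% ± 1.98 (SD, n = 4). The exact permutation p was 0.0286, the smallest that 70 assignments allow, and 0.0630 after adjustment over all genes. Every gene at this smallest p shared that adjusted value, so it does not rank Grb10 above them. No gene had a lower adjusted p, so none passed by this test. By the same measure 22.1% of genes had 39 °C libraries wholly below 37 °C libraries. Cells with at least 2 Grb10 UMIs were 5.35% ± 0.530 at 37 °C and 2.14% ± 0.740 at 39 °C. In G1 cells alone the shares were 29.2% ± 1.36 and 15.4% ± 2.26 (SD, n = 4).

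Across cells, Grb10 was spread slightly more widely than independent counting would give. At 5000 UMIs the variance divided by the mean was 1.18 ± 0.0354 at 37 °C and 1.13 ± 0.0766 at 39 °C (SD, n = 4), where 1 is the Poisson value. Cells without a Grb10 UMI made up 74.2% ± 1.06 at 37 °C against 72.3% from a Poisson count of the same mean. At 39 °C they made up 84.7% ± 1.98 against 83.7%. With means of 0.324 (37 °C) and 0.178 (39 °C) Grb10 UMIs per cell, the shares were thus close to what the mean alone gives. No cell type that lacks the gene was captured, so the share that free RNA alone would give was not measured.

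**Figure D3:**
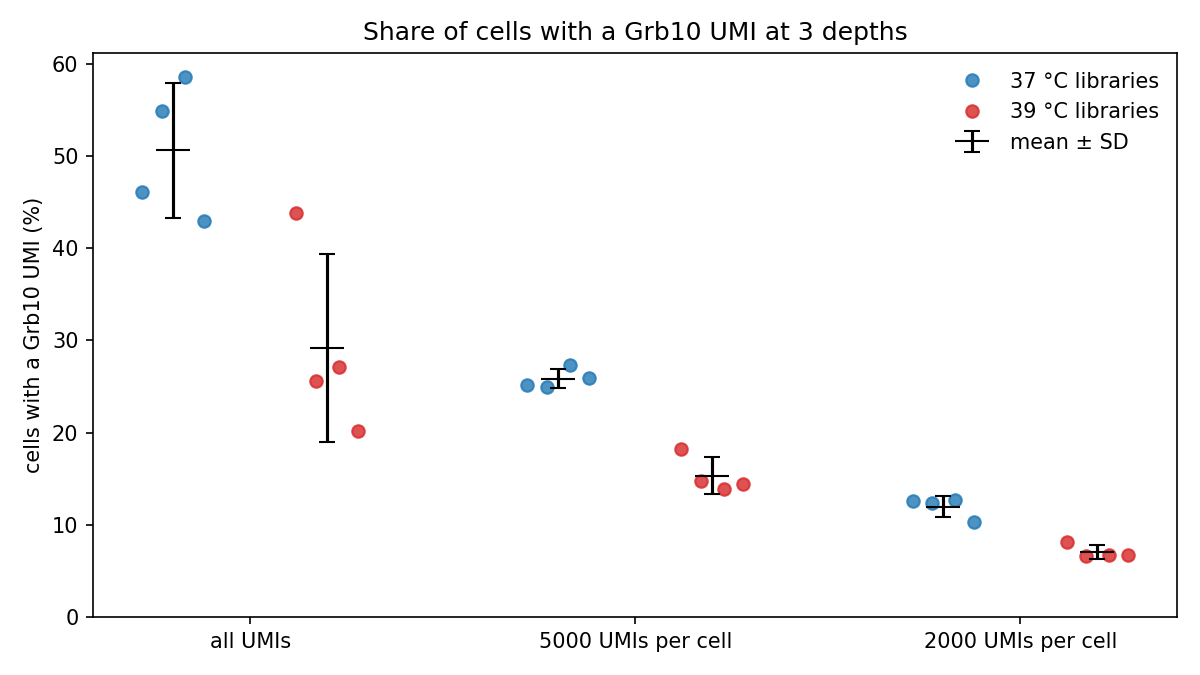
Share of cells in percent with at least 1 Grb10 UMI in each library, over all UMIs and after thinning every cell to 5000 or 2000 UMIs. Points are libraries, and black marks are mean ± SD of 4. The temperatures overlap over all UMIs, where 39 °C replicate 1 reaches 43.8%, and are apart at 5000 and 2000 UMIs.

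Genes whose pattern over the 8 libraries was most like that of Grb10 were sought among 3322 genes with a mean of at least 50 CPM. The highest Pearson r of log2 CPM was 0.991 for Mpnd and for Ywhae and 0.990 for Ide, and 465 genes exceeded 0.95. Both temperatures enter this r as separate clusters, so it is a description of the step between them. Only Grb10 had enough UMIs for such a comparison.

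Mest, which encodes a protein of the alpha/beta hydrolase fold and is transcribed from the paternal copy, lies at chr6:30723547-30748465 on the plus strand. It held 3, 7, 2 and 5 UMIs in the 37 °C replicates and 2, 1, 5 and 4 in the 39 °C replicates. The ranges overlapped. All 12 UMIs at 39 °C were in G1 cells, which made up 82.5% to 85.4% of cells in those libraries. Summed over libraries the level was 0.150 CPM at 37 °C (95% exact Poisson interval 0.0875 to 0.240) and 0.123 CPM at 39 °C (0.0637 to 0.215). A log2 difference of -0.31 (SE 0.56; edgeR adjusted p = 0.665) was not distinguishable from 0 at this depth. Its 29 UMIs were in 28 cells, or 0.153% of all cells (95% exact binomial interval 0.101 to 0.220). Copg2, which overlaps Mest on the other strand, was read at 17.9 ± 0.254 CPM (37 °C) and 22.1 ± 1.58 CPM (39 °C) (log2 fold change 0.30, SE 0.06, edgeR adjusted p = 0.00013), so the region was not without transcripts.

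H19 and Igf2, a maternally expressed RNA and a paternally expressed growth factor, are 72.6 kb apart on chromosome 7. H19 (chr7:142575529-142578143, minus strand) had 3 UMIs in 3 cells, 1 in 37 °C replicate 1 and 2 in 37 °C replicate 4, all of them G2M cells. G2M held 34.6% and 37.3% of the cells of these libraries, and 3 UMIs are too few to show a phase preference. Igf2 (chr7:142650766-142666816, minus strand) had 0 UMIs in every library. Its zero carries a limit of its own: 99.9% of its last exon in GENCODE M21 is shared on the same strand with Gm49394, which also had 0 UMIs, and a read that fits 2 genes is not counted for either. Whether Igf2 transcripts were present therefore cannot be read from these counts. Within 500 kb of H19, 5 of 39 genes had a mean of at least 10 CPM, the nearest being Mrpl23 at 34.8 kb, which was read at 86.6 (37 °C) and 83.5 CPM (39 °C) over pooled libraries.

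Dlk1 and Meg3 are 77.7 kb apart on chromosome 12, with Rian 32.2 kb beyond Meg3. Dlk1 (chr12:109452823-109463336, plus strand) had 2 UMIs, both in a single G2M cell of 37 °C replicate 4. Meg3 (chr12:109541001-109571726, plus strand), a maternally expressed long RNA, had 0 UMIs in every library. A count of 0 in both temperatures allows a level of up to 0.0142 CPM and up to 0.0163% of cells with a UMI, for counting error only. None of the 10 genes within 500 kb of Meg3 reached a mean of 10 CPM, and 8 of them had 3 UMIs or fewer.

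Peg3 (chr7:6703892-6730431, minus strand), a paternally expressed zinc finger protein, had 2 UMIs in 2 cells of 37 °C replicate 2. Plagl1 (chr10:13060504-13131694, plus strand), a zinc finger transcription factor, had 1 UMI, in a G1 cell of 37 °C replicate 1. Ndn (chr7:62346569-62350262, plus strand), which encodes necdin of the MAGE family, had 0 UMIs in every library. No exon base of H19, Meg3, Dlk1, Peg3, Plagl1, Ndn or Mest was shared with another gene of the matrices on the same strand. The surroundings of these genes differed: 5 of 12 genes within 500 kb of Plagl1 had a mean of at least 10 CPM, against 0 of 29 around Peg3 and 0 of 7 around Ndn.

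Across all cells, the 8 members other than Grb10 had 37 UMIs in 35 cells, and no cell held UMIs of more than 1 of them. Of these cells, 17 (48.6%) also held Grb10. Over all cells the mean share of a library with Grb10 was 50.6% at 37 °C and 29.2% at 39 °C, and the difference was not tested. The median depth percentile of the 35 cells within their libraries was 55.7. With at most 3 UMIs at 37 °C and 0 at 39 °C, no difference between temperatures was detectable for H19, Dlk1, Peg3 or Plagl1. For these 4 genes the 39 °C count allows up to 0.0308 CPM.

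Other imprinted genes were read over a wide range. Of 41 in the matrices, 12 (29.3%) had a mean of at least 10 CPM, against 26.9% of all genes and 1 of 9 members, and 13 had 3 UMIs or fewer. Of 27 that could be tested 10 rose and 7 fell, with a median log2 fold change of 0.20 (0.02 over all tested genes, of which 62.0% passed). In G1 cells 8 rose and 7 fell of 26 tested, with a median of -0.01 (0.04 over all genes tested in G1 cells, of which 47.1% passed). Peg10, a paternally expressed gene derived from a retrotransposon, fell from 101 ± 2.53 to 23.2 ± 1.59 CPM (log2 fold change -2.12, SE 0.05, edgeR adjusted p = 8.07e-17). Zrsr1, which encodes a splicing factor related protein, rose from 29.5 ± 2.36 to 55.9 ± 2.14 CPM (0.92, SE 0.06, edgeR adjusted p = 2.86e-11), with the limit that it is a copy of the X-linked Zrsr2 and reads may be split between them. Inpp5f, an inositol phosphatase gene, rose from 25.3 ± 2.00 to 36.1 ± 0.991 CPM (0.51, SE 0.06, edgeR adjusted p = 1.34e-07).

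Genes for proteins that keep imprints were mostly read, with a mean of at least 10 CPM for 11 of 14. Of the 12 tested, 5 rose and 6 fell, with a median log2 fold change of -0.03, where 62.0% of all tested genes passed. In G1 cells 5 rose and 4 fell of 12, where 47.1% of all genes passed. Uhrf1, which brings Dnmt1 to newly replicated DNA, fell from 62.1 ± 5.11 to 10.2 ± 0.864 CPM (log2 fold change -2.61, SE 0.07, edgeR adjusted p = 2.61e-16), and within G1 cells the change was -1.47. Dnmt1, the maintenance methyltransferase, fell from 142 ± 3.74 to 60.8 ± 2.22 CPM (-1.22, SE 0.05, edgeR adjusted p = 2.64e-14), and by 0.79 on the log2 scale in G1 cells. Dnmt3a, a methyltransferase that acts on unmethylated sites, rose from 35.3 ± 0.562 to 67.0 ± 1.76 CPM (0.92, SE 0.04, edgeR adjusted p = 8.6e-13).

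Partners of Grb10 and Igf2 in the insulin-like growth factor pathway were measured in all 12 cases, of which 8 rose and 3 fell, with a median log2 fold change of 0.28. Over all tested genes 31.5% rose and 30.5% fell. In G1 cells 6 rose and 2 fell of 11 tested, against 24.8% and 22.4% of all genes. Irs2, a substrate of the insulin and IGF1 receptors, rose from 71.9 ± 3.90 to 136 ± 2.56 CPM (log2 fold change 0.92, SE 0.05, edgeR adjusted p = 2.57e-12). The genes of the RNA-binding proteins Igf2bp2 and Igf2bp1 went opposite ways, at 24.3 ± 1.19 to 35.8 ± 1.08 CPM (0.56, SE 0.05, edgeR adjusted p = 8.98e-09) and 23.1 ± 1.21 to 15.02 ± 1.31 CPM (-0.63, SE 0.06, edgeR adjusted p = 7.13e-08). The receptor genes Igf1r and Insr, to whose products Grb10 binds, were named after their values were seen. Igf1r rose from 111 ± 9.17 to 128 ± 6.24 CPM (0.21, SE 0.06, edgeR adjusted p = 0.00367), and Insr from 20.3 ± 1.54 to 26.2 ± 1.61 CPM (0.36, SE 0.06, edgeR adjusted p = 3.94e-05). The remaining genes that fell, Akt1 and Igf1, were named in the same way. Akt1 went from 87.1 ± 7.79 to 61.1 ± 2.20 CPM (-0.51, SE 0.06, edgeR adjusted p = 2.2e-07). Igf1 was scarce, with 21 UMIs at 37 °C and 2 at 39 °C (-2.93, SE 0.77, edgeR adjusted p = 0.0027).

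Relatives of the members by sequence were also examined. Of 9 paralogues 8 were tested, 1 rose and 4 fell, with a median log2 fold change of -0.19, so that the share that passed was close to the 62.0% of all tested genes. In G1 cells 1 rose and 3 fell of 7, where 47.1% of all genes passed. Maged1 and Maged2, MAGE family relatives of Ndn, fell from 145 ± 4.45 to 106 ± 2.68 CPM (-0.46, SE 0.04, edgeR adjusted p = 2.69e-08) and from 35.2 ± 1.35 to 25.1 ± 1.92 CPM (-0.49, SE 0.06, edgeR adjusted p = 2.29e-07). Dlk2, the relative of Dlk1, was named after its values were seen, at 22.7 ± 2.03 and 22.3 ± 1.90 CPM (log2 difference -0.04, SE 0.07, edgeR adjusted p = 0.680), while in G1 cells it rose by 0.41 (SE 0.09, edgeR adjusted p = 0.000786). Grb14, a relative of Grb10 named in the same way, was at 6.22 ± 1.02 and 5.17 ± 0.678 CPM (-0.28, SE 0.12, edgeR adjusted p = 0.0478), and in G1 cells it fell by 1.06 on the log2 scale (SE 0.13, edgeR adjusted p = 3.77e-07). Grb7 had 0 UMIs.

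**Figure D4:**
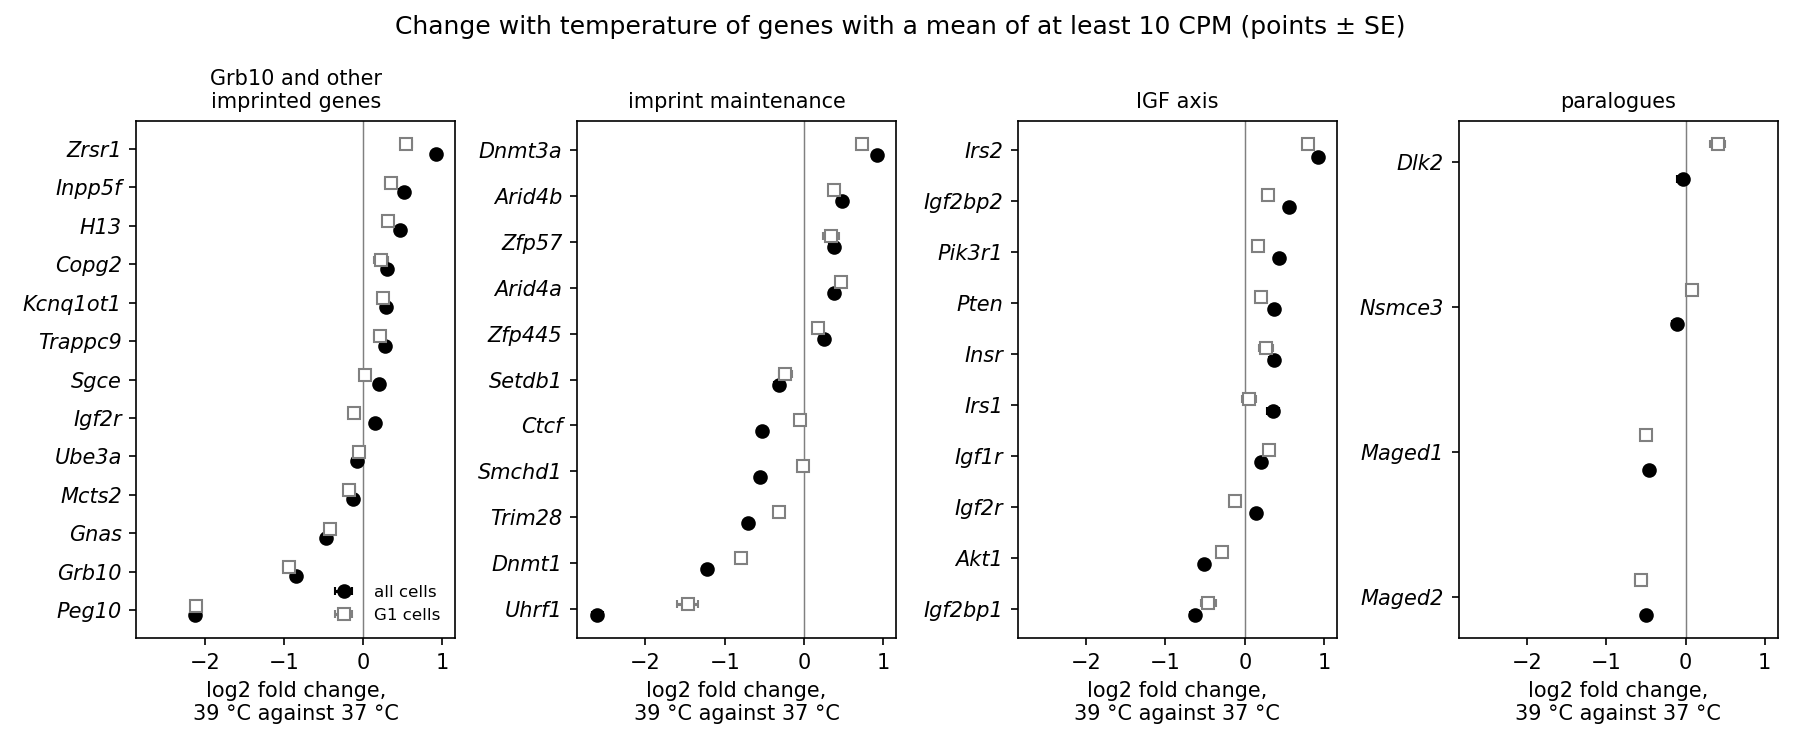
Log2 fold change at 39 °C against 37 °C of genes with a mean of at least 10 CPM, in 4 panels: Grb10 with other imprinted genes, imprint maintenance, the insulin-like growth factor axis and paralogues of the members. Filled circles are all cells, open squares G1 cells, and bars SE from edgeR. Grb10, at -0.85 in all cells and -0.94 in G1 cells, is exceeded downward among imprinted genes shown by Peg10 at -2.12.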

How the data were processed

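Per the labels and the study's methods, cells of 8 libraries were captured with the Chromium 3' V3 kit, and the authors aligned reads to mm10 with Cell Ranger 3.0.1 and deposited UMI counts per gene and cell, with no normalization. The study's limits were applied to 19125 cells: mitochondrial share at most 15%, 200 to 6000 genes. Together these limits left 18351 cells (8550 from 37 °C cultures, 9801 from 39 °C cultures). No doublet caller was run apart from the gene limit. Libraries at the same temperature were not copies of each other (chi-square divided by its degrees of freedom 2.85 to 21.4 over genes).

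Phases were assigned with Seurat 5.3.0 on all kept cells together (cc.genes). Counts were summed per library, or per library and phase, and genes that averaged 1 UMI or more per library were tested with edgeR 4.0.16 in R 4.3.3 (TMM, glmQLFit, glmQLFTest, temperature alone, or library plus phase terms for G2M against G1), with Benjamini-Hochberg adjustment over all tested genes. Each SE is the fold change over the root of its F statistic. Passed, rose and fell mean an adjusted p under 0.05. Shares of cells were compared by exact permutation tests in Python 3.11.15 with NumPy 2.4.6, over 70 assignments, or 35 with a library left out. Exact binomial intervals came from SciPy 1.17.1. In simulated counts where 200 genes had a log2 change of 1, edgeR recovered 198 over all cells (15810 genes), 195 in G1 cells (14712 genes) and 199 for phase (14378 genes). It also called 8, 12 and 7 unchanged genes in these runs. The simulation used a fixed dispersion and changed no low-count genes, so recovery of genes as scarce as Mest was not tested. Intervals cover counting error only, and where a gene had 0 UMIs its limit was set at 3.

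Positions come from GENCODE M21 on GRCm38, where 99.6% of the gene identifiers matched. Members and lists were chosen with earlier results of these data known. From each list up to 3 genes that passed, with the largest change and a mean of at least 10 CPM, were named, and for likeness the 3 closest genes with a mean of at least 50 CPM, while neighbours were taken by position and other genes outside this rule are stated as such. Igf2r and Igf1 are each in 2 lists. Of the cell type markers, 1 is not reported here. Alternatives were other scalings and filters, DESeq2 1.42.0, limma 3.58.1, the replicate number as a block, other cell filters, depths and phase assignments, and each library left out.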

Additional observations from a re-analysis of the deposited data

Results flagged for a closer look

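Each temperature's values of Grb10 and of the Mest level, in 18 groups of 4 libraries, were checked for a library far from the other 3. The limit was a gap to the nearest library above Dixon's 95% critical share of the whole range. At 2000 UMIs per cell, 37 °C replicate 4 had a Grb10 UMI in 10.3% of cells, against 12.4% to 12.7% in the other 37 °C libraries. At the same depth 39 °C replicate 1 stood above the rest, at 8.17% of cells against 6.64% to 6.72%. Chance alone would be likely to give about 1 such group in 20. At 5000 UMIs per cell neither library met this limit, and the temperatures did not overlap at either depth.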

How the results depend on the processing

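The fall of Grb10 kept its direction and its adjusted p under 0.05 in all 20 alternatives over all cells (log2 fold change -0.94 to -0.81) and all 22 in G1 cells (-1.01 to -0.90), and its lower level in G2M at 37 °C did so in 17 of 17. Replicate numbers did not pair the libraries: correlations of same-numbered deviations were -0.16, -0.12, -0.21 and 0.44, and 1 of 4 replicates matched its own number best. With the replicate block the fold change was -0.86 over all cells, with 9617 genes passing against 9803, and -0.94 in G1 cells, with 6778 against 6933. At 39 °C the phase estimate passed with phases scored library by library (-0.22) and with updated phase lists (-0.37), and the cause was not tested. The difference between phase effects (-0.0045) changed sign with RLE scaling (0.061), upper quartile scaling (0.071), library totals (0.11), filterByExpr (0.042), limma voom (0.019) and phases scored library by library (0.088), and ranged from -0.064 to 0.039 with a library left out; its adjusted p was 0.627 or above throughout. Mest ranged from -0.58 to 0.070 over all cells with a library left out and passed nowhere. Depth limits Mest and the genes with 3 UMIs or fewer. Other cell filters, added after seeing the data, gave 30 to 39 UMIs for the 8 members other than Grb10. The share of cells with a Grb10 UMI was lower at 39 °C in all 12 alternatives. It passed in none of them, with an adjusted p of 0.0703 to 0.287 in the permutation tests.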

Other observations

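Among the other imprinted genes, 4 at low level changed by more than 1.5 on the log2 scale with an adjusted p under 0.01 in edgeR, as 5.83% of all tested genes did, and were named after their values were seen. Asb4, which lies in the Peg10 region, fell from 1.20 ± 0.199 to 0.172 ± 0.0875 CPM (SD, n = 4; log2 fold change -2.69), and Slc38a4, an amino acid transporter gene, from 4.34 ± 0.348 to 1.44 ± 0.488 CPM (-1.56). Ascl2, a transcription factor gene of the Kcnq1 region, rose from 0.212 ± 0.170 to 1.31 ± 0.276 CPM (2.62), and Slc22a18 of the same region from 0.146 ± 0.0968 to 1.05 ± 0.411 CPM (2.83). In G1 cells the fold change of Slc22a18 was 1.52 (edgeR adjusted p = 0.0288), past 0.05 but not 0.01. Cdkn1c, a cyclin-dependent kinase inhibitor gene of that region, went the other way, from 2.87 ± 0.315 to 1.74 ± 0.497 CPM (-0.76, edgeR adjusted p = 0.000509), and Kcnq1ot1, the antisense RNA there, rose from 74.5 ± 3.33 to 90.9 ± 1.96 CPM (0.29, edgeR adjusted p = 1.76e-05).

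The neighbours of Grb10 on chromosome 11 were also named after their values were seen. Ddc, 32.4 kb away and imprinted with Grb10 in some tissues, had 1 UMI. Fignl1, 121.5 kb away, was the 1 gene of 11 within 500 kb with a mean of at least 10 CPM, at 28.9 (37 °C) and 10.6 CPM (39 °C) over pooled libraries (log2 fold change -1.49, SE 0.07, edgeR adjusted p = 1.78e-12). Cobl, 197.9 kb to the other side, was at 3.15 and 1.42 CPM (-1.18, SE 0.15, edgeR adjusted p = 1.29e-06).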
